A study of Mus musculus with 10 samples.

Results

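The Hox genes encode homeodomain transcription factors, and mammals carry them in 4 clusters named Hoxa, Hoxb, Hoxc and Hoxd. Within a cluster the genes are numbered by paralog group from 1 to 13, and in the embryo low numbers are used early and toward the head, and high numbers later and toward the tail. Outside the tissues that use them, Hox clusters are known to be held silent by Polycomb complexes. The members described here are all genes whose platform symbol is Hox followed by a cluster letter and a number. A total of 33 such genes had a probe set of their own, of 39 listed by RefSeq and of 18193 named genes measured. The other 6 were not counted as members here, and probe sets that Hoxb8 and Hoxd4 share with another Hox gene are given at the end. Where a gene had several probe sets, the brightest over all 10 samples stood for it.

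The RNA came from fully grown mouse oocytes at the germinal vesicle stage, with 50 oocytes of 1 mouse per sample and 1 array per sample. In 6 samples the mice carried a transgene that makes RNA interference against basonuclin (Bnc1), a zinc finger protein, in oocytes only (RNAi-transgenic, replicates 4, 5, 6, 11, 12 and 13). In 4 samples the mice were non-transgenic (replicates 1, 2, 7 and 8). The strain, the age of the mice, the number of transgenic lines and the promoter of the transgene were not stated in the labels. The values are intensities, given below on the linear or the log2 scale as stated in each sentence. An array has no read depth, and the number of arrays limits the precision. Bnc1 lay between 2696 and 3466 on the linear scale in non-transgenic samples and between 12.8 and 19.2 in transgenic samples, so every sample matched its label. The array medians lay between 17.5 and 20.1. Each array correlated at 0.978 or more with the others of its group over the probe sets above the filter level. The oocyte markers Zp1, Zp2, Zp3, Gdf9, Bmp15, Figla, Nobox and Oosp1 were above the filter level in all 10 samples.

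Most Hox genes were at the array floor in both groups. A gene was tested where its log2 intensity was above 5, which is 32 on the linear scale, in at least 4 of 10 samples. Of the 33 genes, 7 passed (21.2%), as against 58.2% of all named genes measured. These were Hoxa5, Hoxa7, Hoxb3, Hoxc5, Hoxd1, Hoxd8 and Hoxd9. Another 3 genes, Hoxa3, Hoxb1 and Hoxd13, were above the level in 1 to 3 samples. The remaining 23 were below it in all 10 samples, with log2 values between 1.25 and 4.76. Hoxd9 rose about 12.6-fold in transgenic oocytes and Hoxa7 about 1.74-fold, and the other 5 tested genes did not pass the test. Of the 7 tested genes 2 rose (background 18.9% of all genes higher) and 0 fell (18.3% of all genes lower) by limma's moderated test at an adjusted p below 0.05. In either direction 37.2% of all genes passed, beside 28.6% of the 7 Hox genes, so the Hox genes did not stand out by number. At an unadjusted p below 0.05 Hoxd8 was also lower (limma unadjusted p = 0.0405, adjusted p = 0.0923). That threshold is looser, so at least 37.2% of all genes passed it.

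The upstream sequences of both genes that rose are shown with those of a tested gene of the same cluster that did not pass. Each is the 250 bases before the gene's start in RefSeq, read 5′ to 3′ on the gene's strand, in build GRCm38.p6. Hoxd9 is at chr2:74697513-74697762 (plus strand) and Hoxd8, the next Hox gene toward the low-numbered end, at chr2:74704365-74704614 (plus strand). Hoxa7 is at chr6:52218574-52218823 (minus strand) and Hoxa5 at chr6:52204588-52204837 (minus strand). Capitals mark matches, on either strand, to the TATA box (TATAAA), the CCAAT box (CCAAT), the GC box (GGGCGG), a composite site known for Pbx and Hox proteins (TGATTNAT) or the E-box (CACGTG). No window held overlapping matches. A match on the other strand is shown as its reverse complement.
Hoxd9: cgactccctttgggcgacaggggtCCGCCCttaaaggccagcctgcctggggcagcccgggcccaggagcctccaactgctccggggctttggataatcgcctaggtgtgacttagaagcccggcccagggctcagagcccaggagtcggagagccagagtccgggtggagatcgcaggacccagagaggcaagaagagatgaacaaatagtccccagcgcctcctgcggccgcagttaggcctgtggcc
Hoxd8: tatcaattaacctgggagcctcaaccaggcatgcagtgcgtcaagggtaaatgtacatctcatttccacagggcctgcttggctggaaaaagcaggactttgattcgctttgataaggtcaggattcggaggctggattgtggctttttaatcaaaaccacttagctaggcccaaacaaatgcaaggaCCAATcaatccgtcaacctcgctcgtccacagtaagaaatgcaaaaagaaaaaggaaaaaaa
Hoxa7: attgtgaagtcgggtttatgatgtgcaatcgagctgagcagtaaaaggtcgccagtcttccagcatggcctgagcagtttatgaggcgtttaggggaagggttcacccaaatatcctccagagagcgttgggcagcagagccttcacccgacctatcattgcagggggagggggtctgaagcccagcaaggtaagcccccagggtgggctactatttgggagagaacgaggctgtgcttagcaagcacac
Hoxa5: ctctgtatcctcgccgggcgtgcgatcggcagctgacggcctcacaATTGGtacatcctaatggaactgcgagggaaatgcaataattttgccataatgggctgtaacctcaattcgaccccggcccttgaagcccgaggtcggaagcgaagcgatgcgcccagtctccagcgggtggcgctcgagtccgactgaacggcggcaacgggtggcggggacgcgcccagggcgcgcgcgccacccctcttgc

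In these windows Hoxd9 had 1 GGGCGG match and no other. Hoxd8 and Hoxa5 had 1 CCAAT match each, and Hoxa7 had none of the 5 motifs. GGGCGG was present in 32.7% of all 32851 promoter windows cut to the same length, CCAAT in 33.9%, TATAAA in 12.4%, CACGTG in 6.02% and TGATTNAT in 2.82%. The GC content was 65.2% for Hoxd9, 44.4% for Hoxd8, 54.8% for Hoxa7 and 63.6% for Hoxa5, beside a median of 52.4% over all windows. Hoxa5 held 28 CpG, Hoxd9 13, Hoxa7 7 and Hoxd8 6, beside a median of 6. A match is a run of letters and not a measured site. The sequence table held 19 of the 33 measured members.

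Hoxd9 is a member of the high-numbered side of the Hoxd cluster, known for its part in patterning the limb and the lower spine. Its linear intensity was 39.9, 42.6, 49.4 and 60.0 in non-transgenic replicates 1, 2, 7 and 8. In transgenic replicates 4, 5, 6, 11, 12 and 13 it was 583.8, 658.4, 665.5, 396.7, 504.9 and 869.5. All 6 transgenic samples were far above all 4 non-transgenic samples, with replicate 11 the lowest and replicate 13 the highest of the transgenic group. The means were 47.98 ± 8.97 (SD, n = 4) and 613.1 ± 161 (SD, n = 6). On the log2 scale the difference was 3.65 (SE 0.20, 95% interval 3.21 to 4.10), a fold of 12.6 with an interval from 9.24 to 17.1. It passed in limma (adjusted p = 1.93e-07) and by two-sided exact permutation (p = 0.00476, which no division of 4 against 6 samples can go below). Among the 10590 genes tested, Hoxd9 was number 68 by the size of its increase. The non-transgenic values were close to the floor, where the authors' background correction makes a fold uncertain. The gene had 1 probe set, so no other probe set could be compared with it.

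Hoxa7, a gene of the middle of the Hoxa cluster known from the patterning of the trunk, rose less and from a measurable level. Its linear intensity was 147.3, 118.1, 149.3 and 82.2 in non-transgenic replicates 1, 2, 7 and 8. In transgenic replicates 4, 5, 6, 11, 12 and 13 it was 195.8, 229.9, 155.4, 199.2, 319.1 and 192.2. The groups did not overlap, but transgenic replicate 6 was only just above the highest non-transgenic sample. The means were 124.2 ± 31.4 (SD, n = 4) and 215.3 ± 56.1 (SD, n = 6). The log2 difference was 0.80 (SE 0.21, 95% interval 0.33 to 1.27), a fold of 1.74 (limma adjusted p = 0.0132, exact permutation p = 0.00476). Hoxa7 too had 1 probe set. Groups did not overlap for 28.0% of all genes tested.

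Within the sample number ranges, which no label calls batches, Hoxd9 passed in both and Hoxa7 in neither. In samples numbered 1 to 6, Hoxd9 differed by 3.95 on the log2 scale (limma adjusted p = 0.000159), and 1 of 7 Hox genes passed there beside 18.1% of all genes. In samples numbered 7 to 13 it differed by 3.36 (limma adjusted p = 0.00209), and again 1 of 7 passed, beside 21.4% of all genes. Hoxa7 differed by 0.54 (limma adjusted p = 0.146) and 1.06 (limma adjusted p = 0.0772) in the same direction, with fewer samples in each fit. At an adjusted p below 0.01 only Hoxd9 of the 7 was called, beside 23.6% of all genes. With a further limit of at least 2-fold it was again Hoxd9 alone, beside 8.98%.

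**Figure D1:**
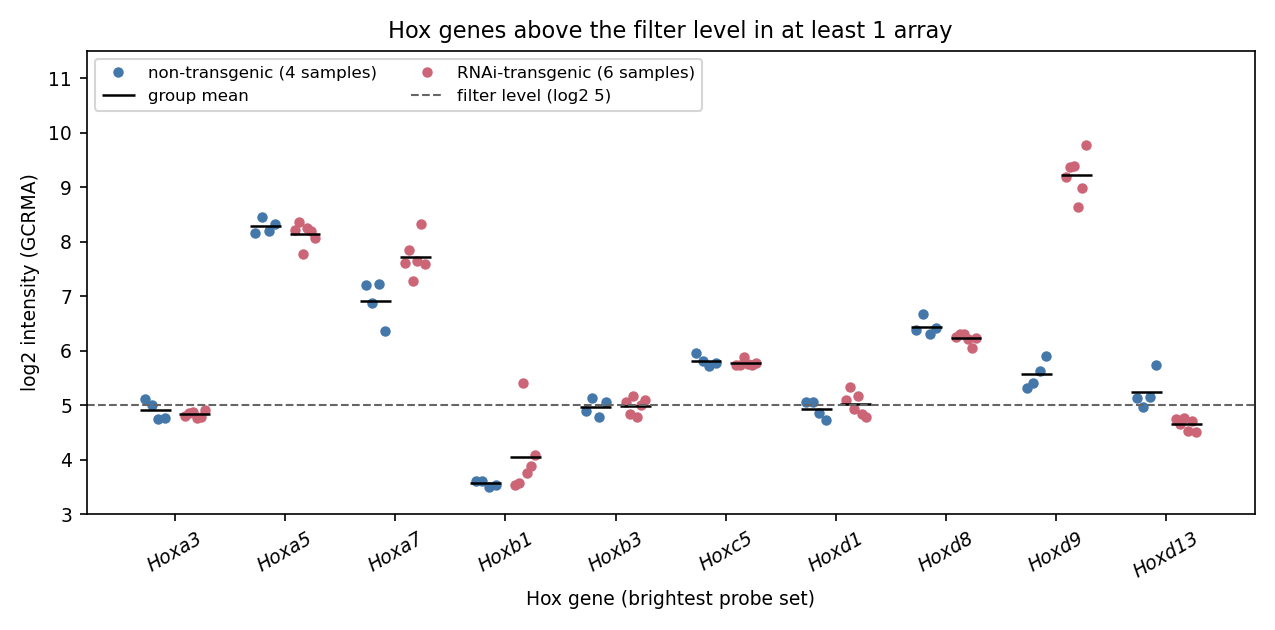
Log2 intensity (vertical axis) of the 10 Hox genes that were above the filter level in at least 1 sample (horizontal axis), with 1 point per sample, a line at each group mean and a dashed line at log2 5. Hoxd9 separates the groups by 3.65 on the log2 scale and Hoxa7 by 0.80, while Hoxa5, Hoxc5, Hoxb3 and Hoxd1 overlap.

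The other 5 tested genes showed smaller differences. Hoxa5, known from lung and neck patterning, was above the level in every sample. On the log2 scale it was 8.16, 8.44, 8.19 and 8.32 in non-transgenic replicates 1, 2, 7 and 8. In transgenic replicates 4, 5, 6, 11, 12 and 13 it was 8.22, 8.36, 7.77, 8.25, 8.19 and 8.06. The groups overlapped, with transgenic replicate 6 the lowest sample. Its difference was -0.14 with a 95% interval from -0.40 to 0.13 (limma adjusted p = 0.41), so a change as large as that of Hoxa7 lay outside the interval.

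Hoxd8, which stands next to Hoxd9, was slightly lower in transgenic oocytes. Its log2 values were 6.37, 6.68, 6.30 and 6.42 in the non-transgenic samples. In the transgenic samples, in the same order of replicates as above, they were 6.26, 6.30, 6.31, 6.21, 6.05 and 6.23. Transgenic replicates 5 and 6 were level with the lowest non-transgenic sample, and the other 4 were below it. The difference was -0.22 with an interval from -0.42 to -0.01. It did not pass over all genes (limma unadjusted p = 0.0405, adjusted p = 0.0923), while its exact permutation p was 0.0143. After quantile normalization it was -0.31 and passed (limma adjusted p = 0.0295), making it the 1 Hox gene called lower there, beside 21.2% of all genes lower and 39.2% called in either direction.

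Hoxc5 lay between 5.72 and 5.95 in all 10 samples, with a difference of -0.04 (interval -0.20 to 0.12, limma adjusted p = 0.679). Hoxb3 and Hoxd1 were at the edge of the filter, each above it in 5 of 10 samples. Hoxb3 differed by 0.03 (interval -0.19 to 0.24, limma adjusted p = 0.849) and Hoxd1 by 0.10 (interval -0.16 to 0.36, limma adjusted p = 0.555). In these 3 genes the groups overlapped. The sign for Hoxb3 turned to -0.03 after each array was centred on its median.

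Hoxd13, the last gene of its cluster, known for its part in digit formation, was above the level in 3 of 4 non-transgenic and 0 of 6 transgenic samples and so was not tested. Its log2 values were 5.14, 4.97, 5.15 and 5.74 in non-transgenic replicates 1, 2, 7 and 8. In the transgenic samples they were 4.74, 4.66, 4.77, 4.53, 4.71 and 4.51. No transgenic sample reached the lowest non-transgenic one (exact permutation p = 0.00476), but all 10 values lay within 1 log2 unit of the filter level. Among the genes that were tested, groups did not overlap for 28.0%. Set against the level, non-transgenic oocytes were at least 1.19-fold higher for Hoxd13. Its other probe set was below the level in all 10 samples, at log2 means of 2.16 and 2.10. In a fit of all 18193 genes without a filter, 2 of 33 Hox genes were higher (Hoxa7 and Hoxd9, beside 10.5% of all genes) and 2 were lower (beside 10.2%), out of 20.6% called in all. Those lower were Hoxd13 (limma adjusted p = 0.00793) and Hoxb13 (limma adjusted p = 0.0205). Hoxb13 was below the level in all samples, with means of 3.57 and 3.41.

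Hoxb1 and Hoxa3 were the other genes above the level in a few samples. Hoxb1, which marks a single hindbrain segment in the embryo, was at log2 5.41 in transgenic replicate 6 and between 3.51 and 4.09 in the other 9 samples. Hoxa3, known from the pharyngeal arches, was just above the level in non-transgenic replicates 1 and 2, at 5.11 and 5.01. Its groups overlapped.

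By cluster, Hoxd had the most genes above the filter and Hoxb the smallest share. In the Hoxd cluster 3 of 8 measured genes were tested (Hoxd1, Hoxd8 and Hoxd9), 1 rose, and the median difference over all 8 was -0.06. In the Hoxa cluster 2 of 9 were tested, 1 rose and the median was -0.04. In the Hoxb cluster 1 of 9 was tested and none passed, with a median of -0.03. In the Hoxc cluster 1 of 7 was tested and none passed, with a median of -0.04. The median over all 33 was -0.04, the same as over all 18193 genes measured (-0.04). No test was run over the members of a cluster.

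By position, the middle of the clusters had the most tested genes. Paralog groups 1 to 4 had 2 of 10 genes tested and none called, groups 5 to 8 had 4 of 9 tested and 1 higher (Hoxa7), and groups 9 to 13 had 1 of 14 tested and 1 higher (Hoxd9). The paralogs of Hoxd9 in the other clusters, Hoxa9, Hoxb9 and Hoxc9, were below the level in all samples, with differences of 0.13, 0.01 and -0.02. The paralog of Hoxa7, Hoxb7, was below it too, at means of 3.51 and 3.36. On the side of Hoxd9 away from Hoxd8, Hoxd10, Hoxd11 and Hoxd12 were below the level in all 10 samples, with differences of -0.06, 0.01 and -0.06.

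Differences within each array were also compared between the groups for the 4 pairs of tested genes of 1 cluster, which need not be adjacent. Hoxd8 minus Hoxd9 moved from 0.88 ± 0.34 (SD, n = 4) to -2.99 ± 0.36 (SD, n = 6) on the log2 scale (two-sided exact permutation p = 0.00476). Hoxd1 minus Hoxd9 moved by -3.55 and Hoxa5 minus Hoxa7 by -0.93 (exact permutation p = 0.00476 for each). Hoxd1 minus Hoxd8 moved by 0.32 (exact permutation p = 0.0381). After Benjamini-Hochberg adjustment over the 4 pairs these p-values were 0.00635 for the first 3 and 0.0381 for the last. The first 3 pairs each hold Hoxd9 or Hoxa7, already called higher, so their p-values largely restate those calls and are no separate support. In the last pair neither gene passed by itself in limma, and Hoxd1 was above the filter level in only 5 of 10 samples. By value, Hoxd9 changed unequally to both tested genes of its cluster, and Hoxa7 unequally to Hoxa5.

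**Figure D2:**
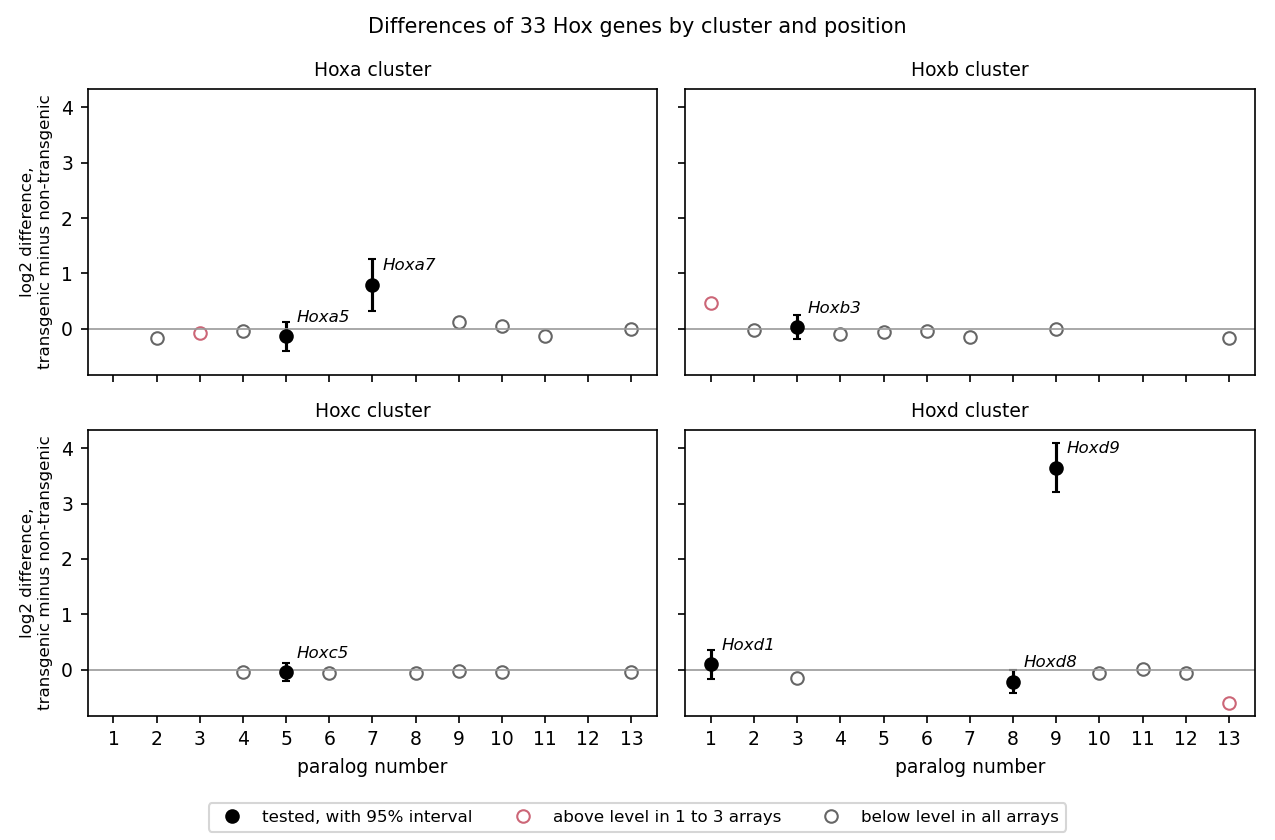
Log2 difference, transgenic minus non-transgenic (vertical axis), of the 33 Hox genes by paralog number (horizontal axis) in a panel for each cluster, with filled points and 95% intervals for the 7 tested genes and open points for the 26 others (red-edged if above the filter level in 1 to 3 samples). Hoxd9 at 3.65 and Hoxa7 at 0.80 stand above a row of genes near 0, and Hoxd13 lies at -0.60.

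The 23 genes below the level in every sample moved little. Their differences lay between -0.17 and 0.13 on the log2 scale, and 19 of them were lower in transgenic samples. Among all 6963 genes below the level everywhere, 81.8% were lower in transgenic samples. Non-transgenic replicate 1 gave the highest value for 14 of the 23, as it did for 54.5% of those 6963 genes. It also had the highest median intensity of the arrays. Values at the floor carry no order.

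Several genes rest on 1 of their probe sets. Of the 7 tested genes, 4 had more than 1 probe set, and in each of them only the brightest was above the level. For Hoxa5 the bright probe set averaged log2 8.28 and 8.14 in non-transgenic and transgenic samples and the other 3.93 and 3.51. The bright one carries the mark the manufacturer gives to probe sets that can also match other transcripts. For Hoxd8 the means were 6.44 and 6.22 in one probe set and 4.09 and 3.88 in the other. Hoxc5 had 2 further probe sets and Hoxb3 had 1, all below the level. Hoxa7, Hoxd1 and Hoxd9 had no second probe set.

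**Figure D3:**
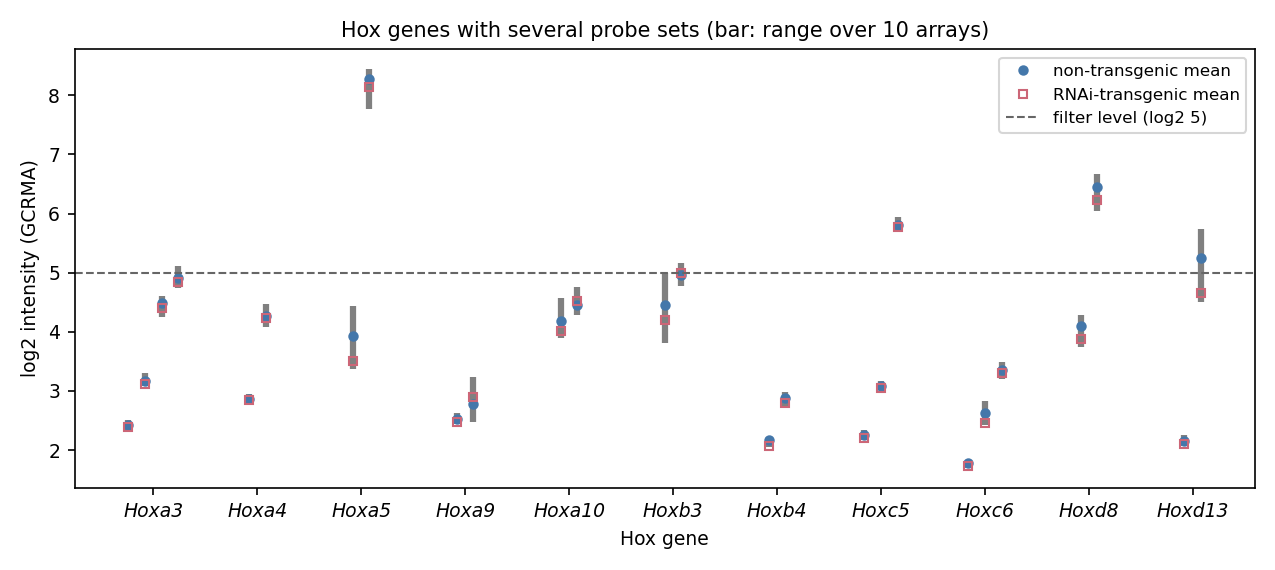
Log2 intensity (vertical axis) of every probe set of the 11 Hox genes with several (horizontal axis), with a bar from the lowest to the highest of 10 samples, a filled circle at the non-transgenic and an open square at the transgenic mean, and a dashed line at log2 5. In Hoxa5, Hoxc5 and Hoxd8 a single probe set lies above the level in all 10 samples and the others lie below it.

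Markers of other ovarian cells moved in part with the groups, and their part in the Hoxd9 and Hoxa7 results was not tested. Hox genes are known to be used in somatic tissues, and in a pool of cells fewer cells of a type and less RNA per cell cannot be told apart. Over all genes 18.9% were higher, 18.3% lower and 37.2% called in all, and the marker counts that follow are small. Of 11 markers of stroma and vessels, 4 were tested, 2 rose (Kdr by 1.19 and Dcn by 1.11 on the log2 scale, Dcn from a level passed in 3 of 4 non-transgenic samples) and Acta2 changed by -0.50. The vessel marker Tek was at log2 means of 6.80 and 6.89 and did not pass (limma adjusted p = 0.739). The summed linear intensity of the 11 markers was 310.1 to 387.4 in non-transgenic and 398.0 to 493.0 in transgenic samples. Pecam1, Cdh5, Col1a2, Col3a1, Pdgfra and Pdgfrb were below the filter level in all samples. Of 9 markers of granulosa cells, 3 were tested and Fshr rose by 1.24, with sums of 262.6 to 311.3 and 294.1 to 512.7. Kitl, at log2 means of 6.72 and 6.78, did not pass (limma adjusted p = 0.889). Nor did Inha, at 5.35 and 5.94 (limma adjusted p = 0.0869). Amh, Inhba, Has2, Ptgs2 and Amhr2 were below the level in all samples. Of 5 blood and immune markers, 2 were tested and Laptm5 rose by 1.06, with sums of 381.1 to 946.6 and 705.3 to 1351. These sums mostly reflect Laptm5, at log2 means of 8.54 and 9.61. The other tested marker, Adgre1, was at 6.67 and 6.72 and did not pass (limma adjusted p = 0.708). Ptprc, Cd68 and Hba-a1 were below the level throughout. Laptm5 lost its call without non-transgenic replicate 2, 7 or 8 (limma adjusted p from 0.0571 to 0.0691) and in samples 1 to 6 alone (0.21), and was 0.36 when its probe sets were averaged (limma adjusted p = 0.0369). Fshr was called in neither number range alone (limma adjusted p = 0.0528 and 0.0635), and Dcn was not in samples 1 to 6 (0.0667). Acta2 lost its call without non-transgenic replicates 1 or 8 or transgenic replicates 4, 5, 11, 12 or 13 (0.0597 to 0.104) and in both number ranges (0.253 and 0.104). Of the 8 oocyte markers, 7 did not pass and Figla changed by -0.54, a call lost without non-transgenic replicate 2 or 7 (limma adjusted p = 0.0513 and 0.0505). In samples 1 to 6 alone Figla was -0.30 and not called (limma adjusted p = 0.424).

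Hox proteins bind DNA together with TALE homeodomain partners of the Pbx, Meis and Pknox families. Of 8 such genes measured, 5 were tested, none rose and 2 fell in limma. Over all genes 18.9% were higher, 18.3% lower and 37.2% called in either direction. The share called in either direction was near the background, and 5 genes are too few to compare the share lower. Pbx3 went from log2 7.82 ± 0.22 (SD, n = 4) to 6.75 ± 0.52 (SD, n = 6), a change of -1.08 (SE 0.25, limma adjusted p = 0.00572). Pbx2 went from 9.02 to 8.24, a change of -0.78 (SE 0.19, limma adjusted p = 0.00787), which was -0.30 and not called in samples 1 to 6 alone (limma adjusted p = 0.207). Meis2 was at 14.22 and 14.17 and did not pass, nor did Pknox1 and Pknox2. Pbx4, Meis1 and Meis3 were below the level in all samples.

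The ParaHox genes are relatives of the Hox genes outside the clusters, and Evx1 and Evx2 flank the Hoxa and Hoxd clusters. Of 8 measured, 3 were tested and 2 were called higher, beside 18.9% of all genes, but 1 of the 2 (Cdx2) entered the test only through its transgenic values. Pdx1, known as a pancreatic factor, went from log2 8.72 ± 0.33 (SD, n = 4) to 9.97 ± 0.15 (SD, n = 6), a rise of 1.25 (SE 0.14, limma adjusted p = 5.57e-05). Cdx2, a trophectoderm and gut factor known to act on Hox genes, was above the level in 1 of 4 non-transgenic and 6 of 6 transgenic samples. Its log2 values were 4.62 to 5.01 in the former and 5.62 to 7.49 in the latter, so the groups did not overlap and transgenic samples were at least 3.31-fold higher on average. Since these values also decided that it was tested, its call is no separate support, and in samples 7 to 13 alone it was not called (limma adjusted p = 0.0612). Evx1 was at 8.86 and 8.88 and did not pass, and Evx2 was below the level.

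Of 22 regulators of Hox transcription, 19 were tested, 3 rose and 3 fell, with a median difference of 0.02 beside -0.03 over all tested genes. Over all genes 18.9% were higher and 18.3% lower, so the shares called here were not above the background. Ash2l, a subunit of the complexes that methylate histone H3 at active genes, rose by 0.64 (SE 0.09, limma adjusted p = 0.00019). Men1, which encodes menin of the same complexes, changed by -0.53 (SE 0.10, limma adjusted p = 0.00189). Rnf2, the ubiquitin ligase of Polycomb complex 1, rose by 0.37 (SE 0.08, limma adjusted p = 0.00432). Phc1, another subunit of that complex, changed by -0.35 (limma adjusted p = 0.0151), a call that needed non-transgenic replicate 2 (limma adjusted p = 0.0513 when left out). Gmnn, which encodes geminin, changed by 0.35 and Eed of Polycomb complex 2 by -0.22. Gmnn lost its call when any 1 sample except non-transgenic replicate 7 was left out (limma adjusted p from 0.055 to 0.12), and Eed when any 1 except non-transgenic replicate 2 and transgenic replicate 12 was (0.0563 to 0.132). In the number ranges taken alone, Rnf2 was 0.37 and 0.36 and Phc1 -0.27 and -0.43, called in neither (limma adjusted p = 0.107 and 0.0649 for Rnf2, 0.263 and 0.0673 for Phc1), and Gmnn and Eed were called in neither. Men1 was called in samples 7 to 13 and not in samples 1 to 6 (limma adjusted p = 0.103). Ezh2, Suz12, Bmi1 and Ctcf did not pass.

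Retinoic acid is a known inducer of Hox genes in the embryo. Of 15 genes of its synthesis, binding and breakdown that were measured, 6 were tested, 3 rose and 0 fell in limma, with a median of 0.16 over the 6, beside 18.9% of all genes higher and 18.3% lower. The call of 1 of the 3 (Rxra) was lost under most alternatives. Aldh1a2, which makes retinoic acid, went from log2 10.46 ± 0.30 (SD, n = 4) to 11.47 ± 0.16 (SD, n = 6), a 2.02-fold rise (SE 0.13 on the log2 scale, limma adjusted p = 0.000126). Crabp2, which carries it to the nucleus, rose by 0.62 (SE 0.12, limma adjusted p = 0.00197) and was not called in samples 1 to 6 alone (limma adjusted p = 0.115). The receptor gene Rxra rose by 0.31 (limma adjusted p = 0.043), a call kept only without non-transgenic replicate 8 or transgenic replicate 12 when single samples were left out (0.0524 to 0.107 in the other 8). It was also lost after quantile normalization (0.152) and median centring (0.109), and in both number ranges taken alone (0.0888 and 0.491). Rxrb, Cyp26a1 and Rdh10 did not pass. Rara, Rarb, Rxrg, Crabp1, Aldh1a1, Aldh1a3, Cyp26b1 and Stra6 were below the level in all samples.

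**Figure D4:**
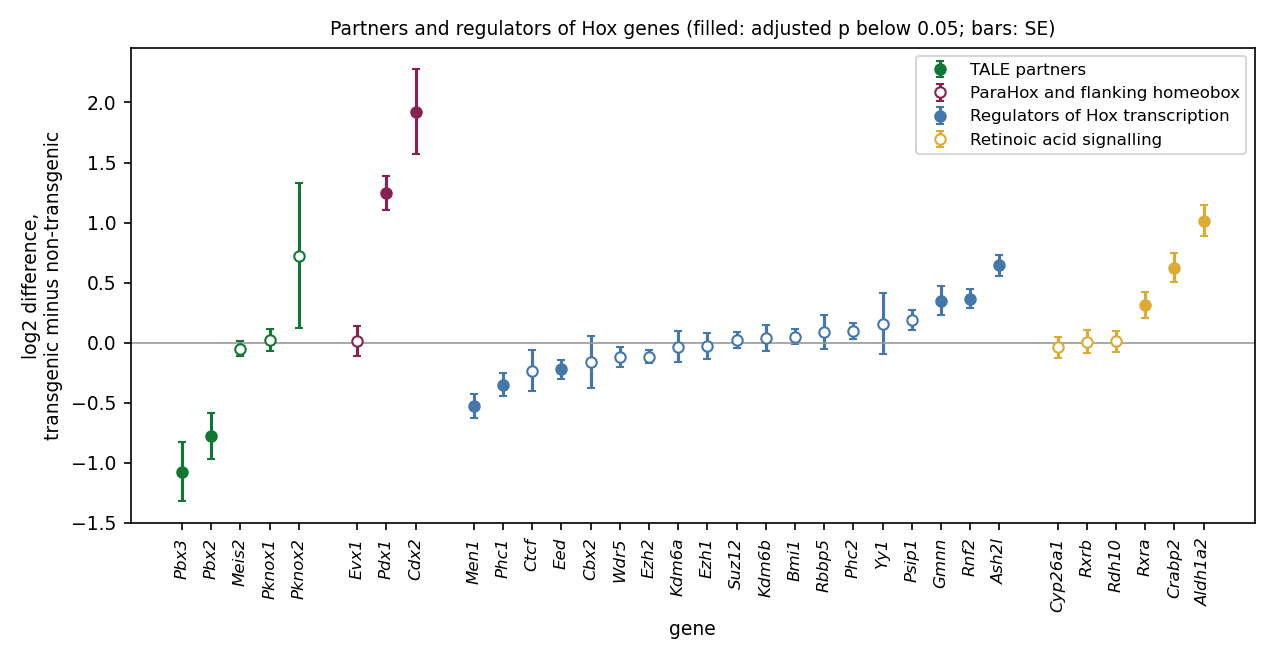
Log2 difference, transgenic minus non-transgenic (vertical axis), of the tested genes of 4 lists around the Hox genes (horizontal axis), with bars of 1 SE and filled points where the limma adjusted p was below 0.05. Cdx2, Pdx1 and Aldh1a2 lie above 1 and Pbx3 below -1, while Evx1 and Meis2 lie near 0.

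Genes that flank the clusters were looked up by order in RefSeq, as the 3 nearest measured protein-coding genes on each side. Of these 24 genes 18 were tested, 1 rose and 5 fell, with a median of -0.07, beside 18.9% of all genes higher and 18.3% lower. Beside the Hoxd cluster, Mtx2 next to Hoxd1 was at log2 9.76 and 9.69 and did not pass, and Lnpk on the Hoxd13 side was below the level on average in both groups. Further out, Atp5g3, a subunit gene of the mitochondrial ATP synthase, rose by 0.995 (limma adjusted p = 6.74e-06), while Agps changed by -0.45 (not called in samples 1 to 6 alone, limma adjusted p = 0.141) and Nfe2l2 by -0.73 (-0.21 in samples 1 to 6 alone, limma adjusted p = 0.381). Beside Hoxc4, the DNA repair gene Smug1 went from 10.29 ± 0.09 (SD, n = 4) to 8.66 ± 0.26 (SD, n = 6), a change of -1.63 (limma adjusted p = 3.59e-06). Cbx1 beside the Hoxb cluster changed by -0.47, a call lost without non-transgenic replicate 1 or 2 or transgenic replicate 6 or 13 (limma adjusted p from 0.0508 to 0.0783) and in both number ranges alone (0.0695 and 0.345). It was -0.14 when its probe sets were averaged (limma adjusted p = 0.334).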

How the data were processed

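Per the labels' protocols, total RNA was labelled with biotin. The authors deposited 1 intensity per probe set and array, made with GCRMA per the submitters' processing notes (its version is not given in the sources). GCRMA takes off a background estimated from probe sequence, makes arrays comparable and pulls dim probe sets toward a floor. The values were above 0 and linear, and log2 was taken with no further normalization. Of 45101 probe sets, 34945 had 1 gene in the platform annotation and 932 several. Positions of neighbours and promoters come from RefSeq (GRCm38.p6). No build is named for the arrays.

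Genes with log2 above 5 in at least 4 samples (10590) were compared with limma 3.58.1 (lmFit, eBayes with a trend) in R 4.3.3, with Benjamini-Hochberg adjustment over all of them and a threshold of 0.05. Differences are transgenic minus non-transgenic. Single values were also compared by two-sided exact permutation over the 210 ways to divide the samples. The fit was tested on simulated data. The samples are of separate mice. The filter is uneven: a gene seen only in non-transgenic oocytes needed 4 of 4 samples, and one seen only in transgenic oocytes 4 of 6.

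The members and lists were chosen with earlier results of these data known. Named are every Hox gene, Bnc1, up to 3 higher and 3 lower genes of each list by adjusted p, and flanking genes by order. Pknox1, Meis2, Mtx2 and other genes that did not pass are named beside them, after their values were seen. Alternatives changed the scaling (quantile, median centring, a pseudocount of 16), the filter (none, or a level of 7), the variance model (no trend, robust, array weights), the samples (number range 1 to 6 or 7 to 13, alone or as a covariate, and leaving out single samples), the probe sets (averaged, or one at a time) and the threshold. Figures were drawn with matplotlib 3.10.9.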

Additional observations from a re-analysis of the deposited data

Results flagged for a closer look

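A single sample stood far from the rest of its group in 2 of the 20 groups examined (10 Hox genes in each of the 2 genotypes), where chance gives about 1 in 20. Both were transgenic replicate 6. For Hoxb1 it was at log2 5.41, with the next transgenic sample at 4.09 and below the filter level. For Hoxc5 it was at 5.88, with the next at 5.77, a small gap in a group with little spread (SD 0.057). Non-transgenic replicate 1 was higher for Hoxc5, at 5.95.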

How the results depend on the processing

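Hoxd9 passed under all 23 alternatives, with log2 differences from 3.27 to 3.95. The alternatives for probe sets left its values and those of Hoxa7 as they were, since each gene has 1 probe set. Hoxa7 passed under 21 of 23 and was 0.54 (adjusted p = 0.146) in samples 1 to 6 and 1.06 (adjusted p = 0.0772) in samples 7 to 13 alone, where fewer samples enter. With single samples left out, Hoxd9 ranged from 3.54 to 3.77 and Hoxa7 from 0.61 to 0.90, both always called, so 2 Hox genes were called higher and 0 lower each time, and between 3383 and 3772 genes in all. The number of Hox genes called higher was 1 within samples 1 to 6, within samples 7 to 13, at adjusted p below 0.01 and at least 2-fold. The number called lower was 2 without a filter and 1 after quantile normalization. All genes called numbered 1913 in samples 1 to 6, 2264 in samples 7 to 13, 2501 at adjusted p below 0.01 and 951 at least 2-fold, against 3940. Signs turned for genes that never passed: Hoxb3 to -0.034 with median centring, Hoxc5 to 0.008 and Meis2 to 0.044 in samples 7 to 13. With single samples left out, Hoxb3 ranged from -0.034 to 0.082, Hoxc5 from -0.072 to 0.003 and Mtx2 from -0.12 to 0.017. No paired analysis was possible because the groups share no replicate number. Signals near the floor limit Hoxb3, Hoxd1, Hoxd13 and the fold of Hoxd9.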

Other observations

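The retinoic acid receptor gene Rarg did not pass the filter but lay higher in every transgenic sample. Its log2 mean was 3.78 ± 0.20 (SD, n = 4) without the transgene and 4.98 ± 0.25 (SD, n = 6) with it, with 0 of 4 and 3 of 6 samples above the filter level. Neither mean of Rarg was above that level, so no fold is given. Among the genes that were tested, groups did not overlap for 28.0%. Transcripts known from the opposite strand of the clusters, Hoxa11os, Hoxb5os and Hoxd3os1, were below the level in all 10 samples, with differences of -0.05, -0.18 and -0.06. Of the probe sets shared between Hox genes, that of Hoxb7 and Hoxb8 was at 3.20 and 3.17, and the brighter of those of Hoxd3 and Hoxd4 was at 3.79 and 3.74.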
